A study of Mus musculus with 18 samples.

Results

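The 10 imprinted genes H19, Igf2, Igf2r, Plagl1, Cdkn1c, Peg3, Mest, Grb10, Ndn and Sgce, several of them known regulators of growth, were followed in mouse cumulus cells with and without oocytes and estrogen. Their probe sets were those of an Affymetrix mouse expression array annotated with exactly 1 gene symbol from that list. This gave 27 probe sets of 9 genes among the 45101 in the table, of which 34945 carry 1 symbol (18193 genes). H19 had none: its probe set, 1448194_a_at, is annotated to both H19 and Mir675, and it is described apart. Levels are deposited log2 values after RMA (background correction, quantile normalization and summary of the probes of a set), so a difference of 1 is a doubling. Of the 27 probe sets, 18 lay above the array's median (5.51 to 5.71) on at least 3 of the 18 arrays and were tested. The 9 others were 1 of 2 for Igf2, 1 of 3 for Plagl1, 3 of 5 for Peg3, 1 of 3 for Grb10 and 3 of 8 for Ndn. A difference between groups is called when limma's p, adjusted by Benjamini-Hochberg over all 21249 tested probe sets, is under 0.05.

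The study asked how estrogen and oocytes together set gene expression in cumulus cells, the somatic cells that surround the oocyte in antral follicles. There were 6 groups of 3 arrays. COC were intact cumulus-oocyte complexes, OOX were complexes left without their oocyte, and OOX + oocytes were oocyte-free complexes cultured together with oocytes. The other 3 groups were the same preparations with estrogen, abbreviated E2 in the titles (E2 COC, E2 OOX, E2 OOX + oocytes). All cells were labelled cumulus cells from antral follicles of female mice; no group is labelled as freshly isolated. Strain, age, estrogen dose and culture time are not given in the sources used here, nor whether the 3 samples in each group were separate animals or separate cultures. The p-values therefore rest on the spread between arrays within groups, estimated over all 6 groups together, and that spread may be technical.

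Genomic imprinting is the expression of a gene mainly from the maternal or mainly from the paternal copy, set by DNA methylation laid down in the germ line. Many paternally expressed genes favour growth and many maternally expressed genes restrain it. Igf2 encodes a growth factor, Igf2r the receptor that takes it up for degradation, Cdkn1c the cyclin-dependent kinase inhibitor p57, Plagl1 a zinc finger transcription factor (ZAC1) that slows the cell cycle, and Grb10 an adaptor that dampens insulin and IGF signalling. These arrays measure total RNA, so they say nothing of which parental copy was read. In bulk samples fewer cells of a type and less RNA per cell cannot be told apart.

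The upstream sequences of the 3 genes below are shown because Plagl1 moved with oocytes, Igf2r with estrogen in cocultures, and Peg3 because its window alone, of the 13 found for 7 of the genes, holds the core letters of the PLAGL1 motif. Each is the 250 bases before the first base of the RefSeq transcript, on the gene's strand, build GRCm38.p6. Capitals mark CpG dinucleotides in Plagl1 (chr10:13090582-13090831, plus strand), the letters GGTCA on either strand (1 arm of the palindrome that estrogen receptors bind) in Igf2r (chr17:12769707-12769956, minus strand), and GGGGCCCC, core letters of the PLAGL1 motif, in Peg3 (chr7:6730420-6730669, minus strand).
Plagl1: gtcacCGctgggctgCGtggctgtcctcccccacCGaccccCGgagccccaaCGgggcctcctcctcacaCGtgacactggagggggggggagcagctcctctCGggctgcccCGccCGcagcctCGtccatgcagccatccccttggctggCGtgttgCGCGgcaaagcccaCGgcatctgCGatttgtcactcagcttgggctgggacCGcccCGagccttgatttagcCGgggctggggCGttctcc
Igf2r: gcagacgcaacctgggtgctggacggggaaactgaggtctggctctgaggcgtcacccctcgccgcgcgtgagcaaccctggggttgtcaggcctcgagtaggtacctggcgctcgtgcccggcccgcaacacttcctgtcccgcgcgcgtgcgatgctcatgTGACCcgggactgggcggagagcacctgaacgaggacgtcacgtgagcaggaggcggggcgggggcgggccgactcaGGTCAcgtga
Peg3: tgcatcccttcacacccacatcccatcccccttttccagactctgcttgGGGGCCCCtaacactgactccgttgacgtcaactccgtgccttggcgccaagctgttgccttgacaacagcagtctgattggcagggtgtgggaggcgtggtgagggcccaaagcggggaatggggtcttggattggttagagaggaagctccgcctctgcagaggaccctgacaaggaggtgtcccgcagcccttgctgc

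The Plagl1 window held 19 CpGs and the Igf2r window 27, against a median of 6 (quartiles 2 and 16) over 32851 RefSeq promoter windows of the same length. The Peg3 window held 8. Igf2r had 2 matches to GGTCA, 87 and 10 bases upstream of the start site, and 35.2% of all windows had at least 1. None of the 13 windows (of Plagl1, Igf2, Igf2r, Peg3, Mest, Grb10 and Ndn) held the full palindrome GGTCANNNTGACC, which contains that arm and occurred in 0.0639% of all windows. The Peg3 match to GGGGCCCC lay 201 bases upstream, and 0.889% of all windows had one. These are matches of letters, not sites shown to be bound.

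Some arrays and labels bear on every comparison. The array names fall into 3 series: 13 arrays in series 1, 2 in series 2 (OOX replicate 3 and OOX + oocytes replicate 2) and 3 in series 3 (OOX replicates 1 and 2, E2 OOX replicate 3). All 3 OOX arrays lie outside series 1 and all COC arrays inside it, so their contrast has no value within a series. A fit with the series as a term is given for some of the calls that it changes. OOX replicate 3 stood apart, correlating at most 0.936 with another array of its group against 0.962 to 0.989 for the other arrays. Without it, OOX rests on series 3 alone, which holds no COC or coculture array. Differences of OOX from those groups then cannot be told apart from the series. The array whose title reads E2 OOX with the running number 5 carries a treatment label without estrogen; it was kept in E2 OOX, as replicate 1. Of the granulosa markers, Foxl2, a transcription factor gene, was above the median on 18 of 18 arrays and the FSH receptor gene Fshr on 17, but Fshr fell by 1.32 on removal without estrogen and by 2.02 with it (adjusted p = 0.00107 and 2.66e-05), and the summed level of the 12 markers was lower in the oocyte-free groups.

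Cdkn1c, the CDK inhibitor, gave the clearest pattern of the group: it was high wherever the oocyte was missing and low wherever oocytes were present, with or without estrogen. Its single probe set (1417649_at) read 5.67, 5.75 and 5.59 in the 3 COC arrays and 8.95, 8.52 and 8.08 in OOX. With oocytes added back it read 5.59, 5.44 and 5.50. In estrogen the values were 5.63, 5.36 and 5.91 in COC, 8.35, 8.40 and 8.37 in OOX, and 5.39, 5.82 and 5.67 in OOX + oocytes. Every array without oocytes was above every array with them, and the groups with oocytes overlapped one another, near the array median.

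Oocyte removal raised Cdkn1c by 2.85 ± 0.19 log2 units (± SE, 3 arrays per group), 7.19-fold, without estrogen (adjusted p = 9.62e-09, limma). With estrogen the rise was 2.74 ± 0.19 (adjusted p = 1.99e-08, limma). Adding oocytes lowered it by as much: it fell by 3.01 ± 0.19 without estrogen and by 2.75 ± 0.19 with it (adjusted p = 6.20e-09 and 2.48e-08, limma). Cocultures against intact complexes differed by -0.16 (95% interval -0.56 to 0.24) without estrogen and by -0.01 (-0.41 to 0.40) with it. Both lie near the array median, where small changes are not resolved. Estrogen itself changed Cdkn1c by -0.14 in oocyte-free complexes (-0.55 to 0.26), and the change with removal did not pass the test of a difference between the 2 hormone conditions (-0.11, -0.68 to 0.46, adjusted p = 0.922). The 4 oocyte calls held under every alternative run for them, and within array series 1 alone removal in estrogen gave 2.74.

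**Figure D1:**
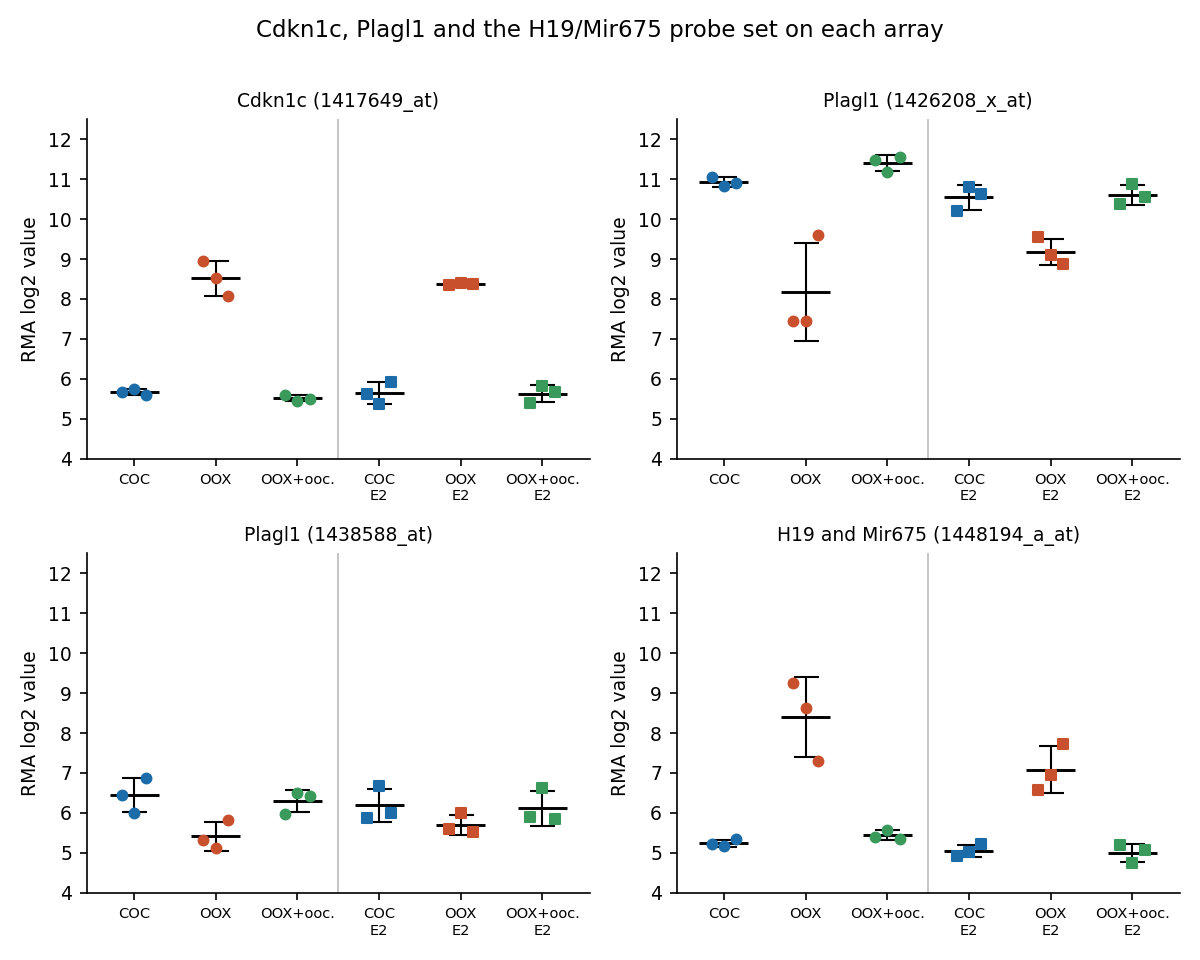
RMA log2 values (vertical axis) of Cdkn1c, both tested Plagl1 probe sets and the probe set annotated H19 and Mir675 on each of the 18 arrays, by group (horizontal axis; ooc., oocytes; E2, estrogen; circles without and squares with estrogen). Bars are group means with SD, n = 3. Cdkn1c lies between 8.08 and 8.95 in the 6 oocyte-free arrays and between 5.36 and 5.91 in the other 12, while Plagl1 1426208_x_at is lowest where Cdkn1c is high.

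Plagl1 ran the other way: it was lower in oocyte-free cells and was restored by added oocytes. The brighter probe set, 1426208_x_at, read 11.06, 10.82 and 10.90 in COC, 7.46, 7.46 and 9.59 in OOX, and 11.48, 11.19 and 11.56 in OOX + oocytes. With estrogen it read 10.20, 10.81 and 10.64 in COC, 9.54, 9.11 and 8.88 in OOX, and 10.39, 10.88 and 10.55 in OOX + oocytes. No oocyte-free array reached the lowest array with oocytes, but OOX replicate 3, the array that stood apart, sat at the level of the estrogen-treated oocyte-free arrays and not with the other 2 of its group.

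Removal lowered this Plagl1 probe set by 2.76 ± 0.40 without estrogen (6.76-fold, adjusted p = 4.27e-05, limma) and by 1.37 ± 0.40 with estrogen (2.59-fold, adjusted p = 0.0156, limma). In both hormone conditions the compared groups did not overlap. Without OOX replicate 3 the first difference was -3.47. In a fit with a series term it was -2.13 (adjusted p = 0.00116), and within series 1 the second was -1.23. Added oocytes raised it by 3.24 ± 0.40 without estrogen (adjusted p = 1.02e-05, limma) and by 1.43 ± 0.40 with it (adjusted p = 0.0153, limma). Both calls made in estrogen were lost when single arrays were left out: removal without E2 COC replicate 2, E2 COC replicate 3 or E2 OOX replicate 3 (adjusted p up to 0.0606), and addition without E2 OOX + oocytes replicate 2 or E2 OOX replicate 3 (up to 0.0618).

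Whether the Plagl1 response differed with estrogen depended on 1 array. With all 18 arrays the removal effect was 1.38 less negative in estrogen (95% interval 0.20 to 2.57, adjusted p = 0.274), and the effect of added oocytes 1.81 smaller (adjusted p = 0.127), so neither difference passed the test. Without OOX replicate 3 the same differences were 2.09 (adjusted p = 0.000755) and -2.52 (adjusted p = 0.000208), and estrogen in oocyte-free complexes changed Plagl1 by 1.72 (adjusted p = 0.000173) against 1.01 (adjusted p = 0.128) with it. Those values rest on OOX arrays of series 3 alone, and with a series term the difference in addition was not called. Estrogen in cocultures gave -0.80, not called (adjusted p = 0.355), and was called without OOX replicate 3 (adjusted p = 0.0214) and in series 1 alone (-0.91, adjusted p = 0.0184). Within array series 3, the 2 OOX arrays read 7.46 and 7.46 and the 1 E2 OOX array 8.88. With the conflicting array moved to OOX, estrogen in oocyte-free complexes gave 0.48 (adjusted p = 0.860).

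The second tested Plagl1 probe set, 1438588_at, was much dimmer and moved the same way, with a correlation of 0.806 to the first over the 18 arrays. It read 6.46, 6.01 and 6.88 in COC, 5.31, 5.11 and 5.82 in OOX, and 5.98, 6.49 and 6.42 in OOX + oocytes. It fell by 1.04 on removal (adjusted p = 0.00761) and rose by 0.88 with added oocytes (adjusted p = 0.0233) without estrogen. Both of these calls were lost in a fit with a series term (adjusted p = 0.0961 and 0.159), and the second also without OOX + oocytes replicate 2 or 3 or OOX replicate 1 or 2. In estrogen its differences were -0.49 (-1.07 to 0.10) and 0.42 (-0.17 to 1.00), not called. The third probe set, 1450533_a_at, stayed below the array median on all 18 arrays (3.10 to 4.13) and was not tested. The suffix x marks a set whose probes can also match other sequences.

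Igf2r, the receptor that clears IGF2, rose with estrogen in cocultures on 1 of its 2 probe sets; the difference in intact complexes and the test between hormone conditions did not pass. Its brighter probe set, 1424112_at, read 9.49, 9.27 and 9.30 in COC, 9.05, 9.27 and 8.93 in OOX, and 9.53, 8.55 and 9.03 in OOX + oocytes. With estrogen it read 9.90, 9.84 and 10.19 in COC and 10.12, 10.17 and 10.29 in OOX + oocytes, but 9.45, 8.93 and 9.04 in OOX. The 6 arrays with both oocytes and estrogen were above all 12 others, whose ranges overlapped one another.

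In cocultures estrogen raised this Igf2r probe set by 1.16 ± 0.21 (2.23-fold, adjusted p = 0.00255, limma), and the groups did not overlap. In intact complexes the difference was 0.62 (0.19 to 1.06), with no overlap between the groups but no call (adjusted p = 0.115); it was called in the fit with a series term (adjusted p = 0.0356) and in series 1 alone (0.0399). In oocyte-free complexes the difference was 0.06 (-0.38 to 0.49). In estrogen, removal lowered it by 0.84 ± 0.21 (adjusted p = 0.00578) and added oocytes raised it by 1.05 ± 0.21 (adjusted p = 0.00131, limma). Without estrogen the same comparisons gave -0.27 (-0.71 to 0.17) and -0.05 (-0.48 to 0.39). The difference between the hormone conditions in the effect of added oocytes was 1.1 (0.48 to 1.72), just short of the threshold (adjusted p = 0.0615). It passed in 8 alternative fits, among them the one with a series term (1.19, adjusted p = 0.0141) and those without OOX + oocytes replicate 1, E2 OOX replicate 1 or OOX replicate 3 (adjusted p = 0.0120, 0.0439 and 0.0491). E2 OOX replicate 1 is the array with conflicting labels. Leaving it out was run under separate names, so the 8 fits may include a repeat.

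The other Igf2r probe set, 1424111_at, followed only in part, with a correlation of 0.433. Its values were 7.82, 7.70 and 7.83 in COC, 8.88, 8.66 and 7.64 in OOX, and 8.15, 7.76 and 7.79 in OOX + oocytes. In estrogen they were 8.21, 8.16 and 8.41 in COC, 7.96, 7.80 and 8.54 in OOX, and 8.28, 8.45 and 8.62 in OOX + oocytes. Here 2 of 3 OOX arrays were the highest of all and OOX replicate 3 was the lowest of all. None of its 9 comparisons between groups was called. The nearest was removal without estrogen, at 0.61 (0.07 to 1.15, adjusted p = 0.0738), which is in the opposite direction to 1424112_at and was called without OOX replicate 3 (0.99, adjusted p = 0.00113). Leaving out that array also brought calls for added oocytes without estrogen (-0.87, adjusted p = 0.00342) and for the differences between hormone conditions in removal (-1.15, adjusted p = 0.0257) and in addition (1.22, adjusted p = 0.0190). The calls made without OOX replicate 3 rest on OOX arrays of series 3 alone. Airn, the antisense RNA of this imprinted locus, had several probe sets of its own, of which that of highest mean (1436627_at) was used. This set fell by 0.84 on removal without estrogen (adjusted p = 0.00791, limma) and was not called in the 3 other oocyte comparisons. Set 1440979_at, annotated to both Airn and Igf2r, was below the median on all arrays (mean 5.41 in COC and 5.25 in OOX) and was not tested.

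**Figure D2:**
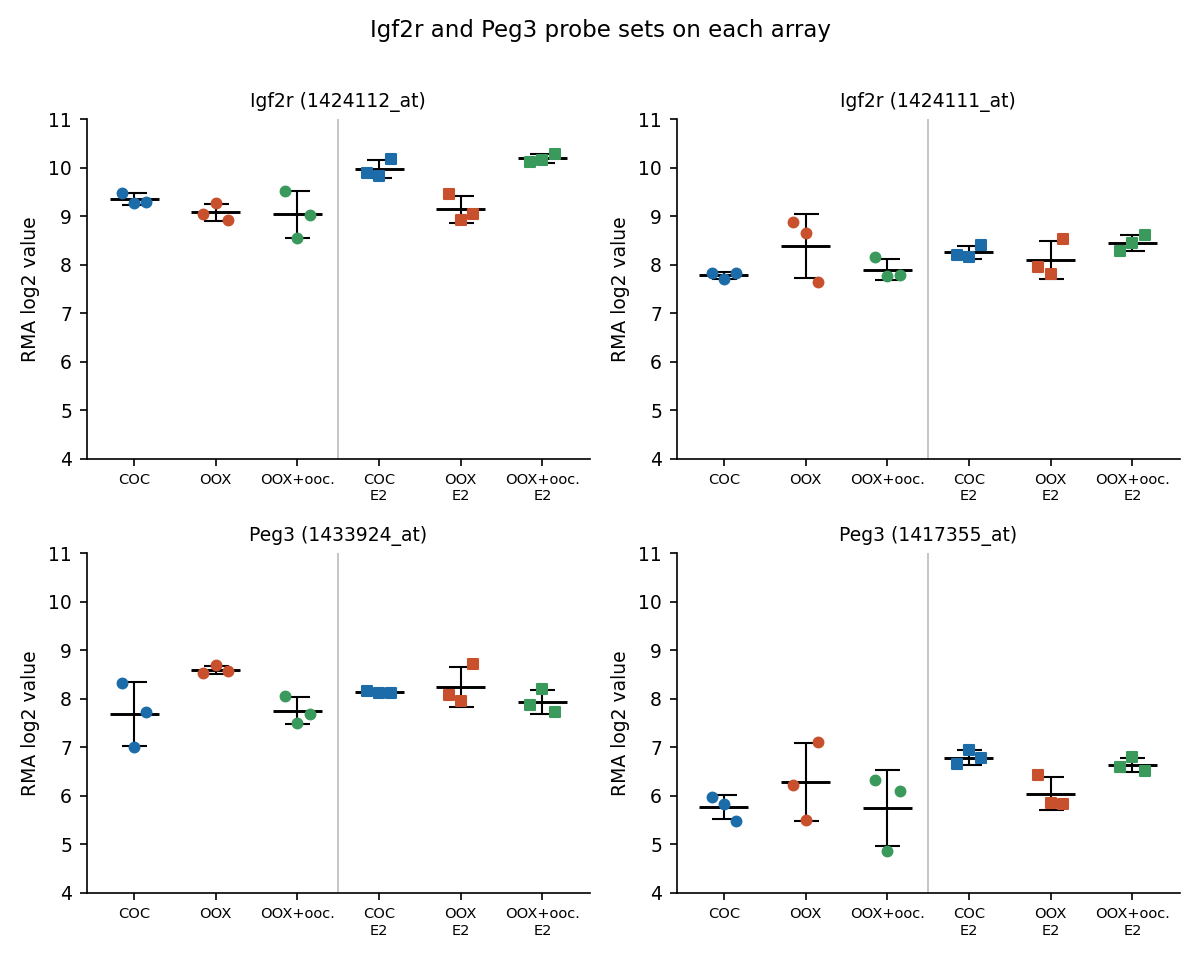
RMA log2 values (vertical axis) of both tested probe sets of Igf2r and of Peg3 on each array, by group (horizontal axis, symbols as in the plot of Cdkn1c and Plagl1); bars are means with SD, n = 3. For Igf2r 1424112_at the 6 arrays with oocytes and estrogen lie at 9.84 or more and the others at 9.53 or less, while the second probe set of each gene does not repeat the pattern of the first.

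Peg3, a paternally expressed zinc finger gene, rose in oocyte-free complexes on its brightest probe set, but the call was fragile. Probe set 1433924_at read 8.33, 7.00 and 7.72 in COC, 8.54, 8.69 and 8.57 in OOX, and 8.06, 7.51 and 7.69 in OOX + oocytes. With estrogen it read 8.17, 8.13 and 8.13 in COC, 8.07, 7.95 and 8.71 in OOX, and 7.88, 8.20 and 7.72 in OOX + oocytes. Without estrogen the OOX arrays were above the others; with it the groups overlapped. Removal raised it by 0.92 ± 0.27 (adjusted p = 0.0126, limma) and added oocytes lowered it by 0.85 ± 0.27 (adjusted p = 0.0233). The removal call was lost without COC replicate 2, the lowest array, with the series as a term (0.69, adjusted p = 0.236) and in a fit of the 2 groups alone. The addition call was lost with the series as a term (-0.61, adjusted p = 0.219), without OOX + oocytes replicate 2 or 3 or OOX replicate 2, and with the conflicting array placed in OOX (adjusted p = 0.0572). In estrogen removal gave 0.10 (-0.46 to 0.66) and added oocytes -0.31 (-0.87 to 0.25), and the difference between hormone conditions in the removal effect was not called (-0.82, adjusted p = 0.370).

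The other tested Peg3 probe set, 1417355_at, had another pattern, with a correlation of 0.285 to the first. It read 5.97, 5.83 and 5.49 in COC and 6.65, 6.95 and 6.77 in E2 COC, and 6.32, 4.86 and 6.09 in OOX + oocytes against 6.60, 6.80 and 6.51 with estrogen. Both pairs of groups were separate, while the oocyte-free arrays overlapped (6.23, 5.51 and 7.12 without and 6.43, 5.86 and 5.83 with estrogen). The differences of 1.03 (0.27 to 1.78, adjusted p = 0.138) and 0.88 (0.12 to 1.64, adjusted p = 0.244) did not pass the adjusted test. In a fit of the compared groups alone, and in series 1 alone, the first of these was called. Its 3 other probe sets were below the median on all arrays (2.06 to 5.63).

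The 5 remaining genes showed no call in any of the 9 comparisons between groups. Over their 11 tested probe sets the smallest adjusted p was 0.0752, and the 95% intervals together ran from -1.34 to 1.43, so the widest of them reach past a doubling. Igf2 (1448152_at), the growth factor, was near the array median throughout, from 5.41 to 6.00, and its intervals ran from -0.51 to 0.46. Mest (1423294_at), which encodes a hydrolase-like protein of mesoderm, lay between 5.62 and 6.68, with intervals from -0.64 to 0.75. The second Igf2 probe set (3.32 to 4.00) was below the median on all arrays.

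Ndn, which encodes the growth-suppressing MAGE protein necdin, had no call on any of its tested probe sets. Of its 5 tested probe sets, 1435382_at read 8.91, 9.18 and 8.92 in COC and 9.50, 9.29 and 9.10 in OOX. With estrogen this set read 9.30, 9.22 and 9.24 in COC and 9.77, 9.55 and 9.52 in OOX. With a series term 1435383_x_at was called on removal without estrogen, and in series 1 alone 1455792_x_at on removal with it (adjusted p = 0.0400 and 0.0430). The intervals of the 5 ran from -0.66 to 0.86 and the smallest adjusted p was 0.174. Correlations between pairs of them were 0.317 to 0.931. Its 3 untested probe sets read 2.70 to 3.93.

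Grb10 had 2 tested probe sets that did not move together (correlation -0.101). The brighter, 1425458_a_at, read 7.22, 7.19 and 7.10 in COC, 7.32, 6.85 and 6.51 in OOX, and 7.89, 6.98 and 8.03 in OOX + oocytes; the groups overlapped, and added oocytes gave 0.74 (0.10 to 1.38, adjusted p = 0.0752), a difference that was called without OOX + oocytes replicate 2 or OOX replicate 1 (smallest adjusted p over the alternatives 0.0122). Sgce, the epsilon-sarcoglycan of the dystrophin-associated complex, was likewise divided (correlation -0.171). Set 1420688_a_at read 8.56, 8.08 and 8.07 in OOX and 9.45, 8.17 and 9.08 in OOX + oocytes, a difference of 0.66 (0.08 to 1.25, adjusted p = 0.0837) that was called without OOX + oocytes replicate 2 (smallest adjusted p over the alternatives 0.00527). Set 1443518_at gave -0.62 (-1.34 to 0.11) in the same comparison. On removal with estrogen it gave 0.71 (-0.01 to 1.43, adjusted p = 0.142), called without E2 OOX replicate 3, in series 1 alone and with a series term.

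**Figure D3:**
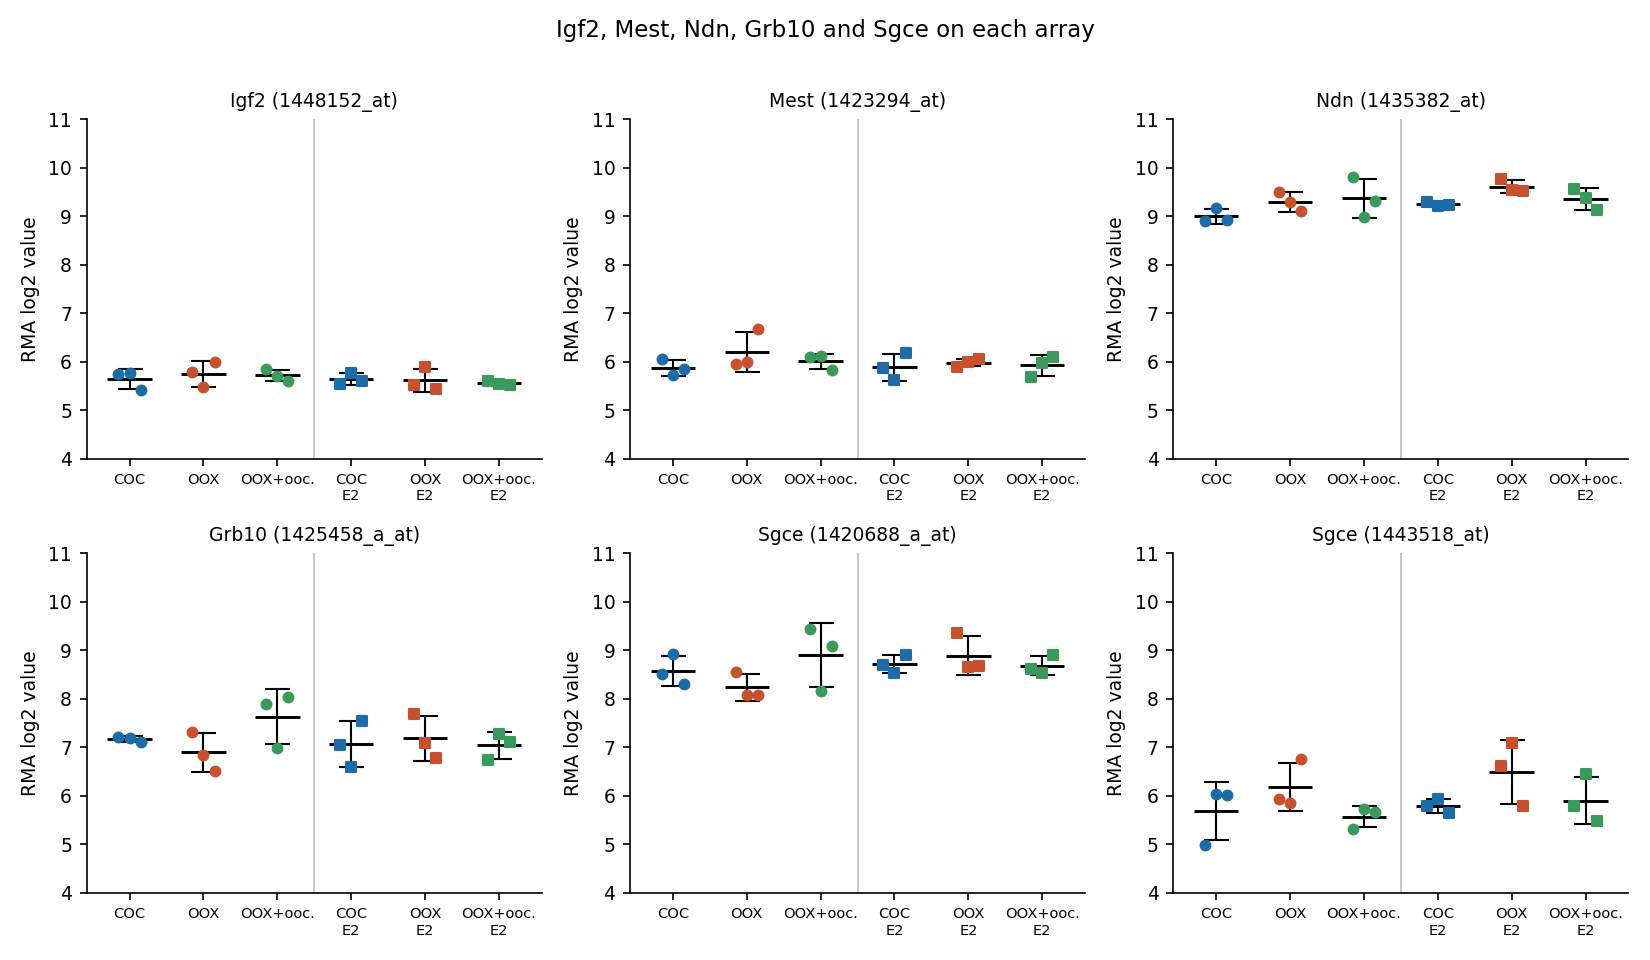
RMA log2 values (vertical axis) of Igf2, Mest, 1 Ndn, 1 Grb10 and both Sgce probe sets on each array, by group (horizontal axis), drawn on 1 scale; bars are means with SD, n = 3. Igf2 stays between 5.41 and 6.00 in all groups, and none of the 6 sets was called in any comparison between groups.

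The counts put these results beside those of all 21249 tested probe sets, where oocyte comparisons changed a large share. On removal without estrogen 2 member probe sets were higher and 2 lower of 18, where 35.1% of all tested sets were called (15.9% higher, 19.2% lower). On removal with estrogen 1 was higher and 2 lower, against 26.6% (11.9% and 14.6%). With added oocytes 2 were higher and 2 lower without estrogen, against 29.9% (17.9% higher, 12.0% lower). In estrogen 2 were higher and 1 lower, against 21.4% (12.1% and 9.29%). A called share of 3 or 4 in 18 is thus near or below that of the whole array. The median size of the difference was 0.31 over the members and 0.38 over all sets on removal without estrogen, and 0.41 and 0.34 with oocytes added. In estrogen the same medians were 0.23 and 0.32 on removal and 0.23 and 0.29 with oocytes added, lower for the members in both.

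For cocultures against intact complexes limma called 0 of the 18 in either hormone condition, where 0.0% and 0.00471% of all tested sets were called. At an unadjusted p under 0.05 there were 0 members in both, against 1216 and 508 of the 21249 sets. By limma, estrogen was called for 0 of 18 in intact complexes, 0 in oocyte-free complexes and 1 in cocultures. Of all sets 4.13%, 7.89% and 3.78% were called. The members at an unadjusted p under 0.05 were 2, 2 and 3, against 3525, 5341 and 3199 of the 21249 sets. For the differences between hormone conditions limma called 0 of 18 for removal and 0 for addition (2.54% and 2.24% of all sets). Here 4 and 5 members had an unadjusted p under 0.05, against 2731 and 2452 of the 21249 sets. The removal and addition comparisons share the oocyte-free arrays, so they are not independent of each other.

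**Figure D4:**
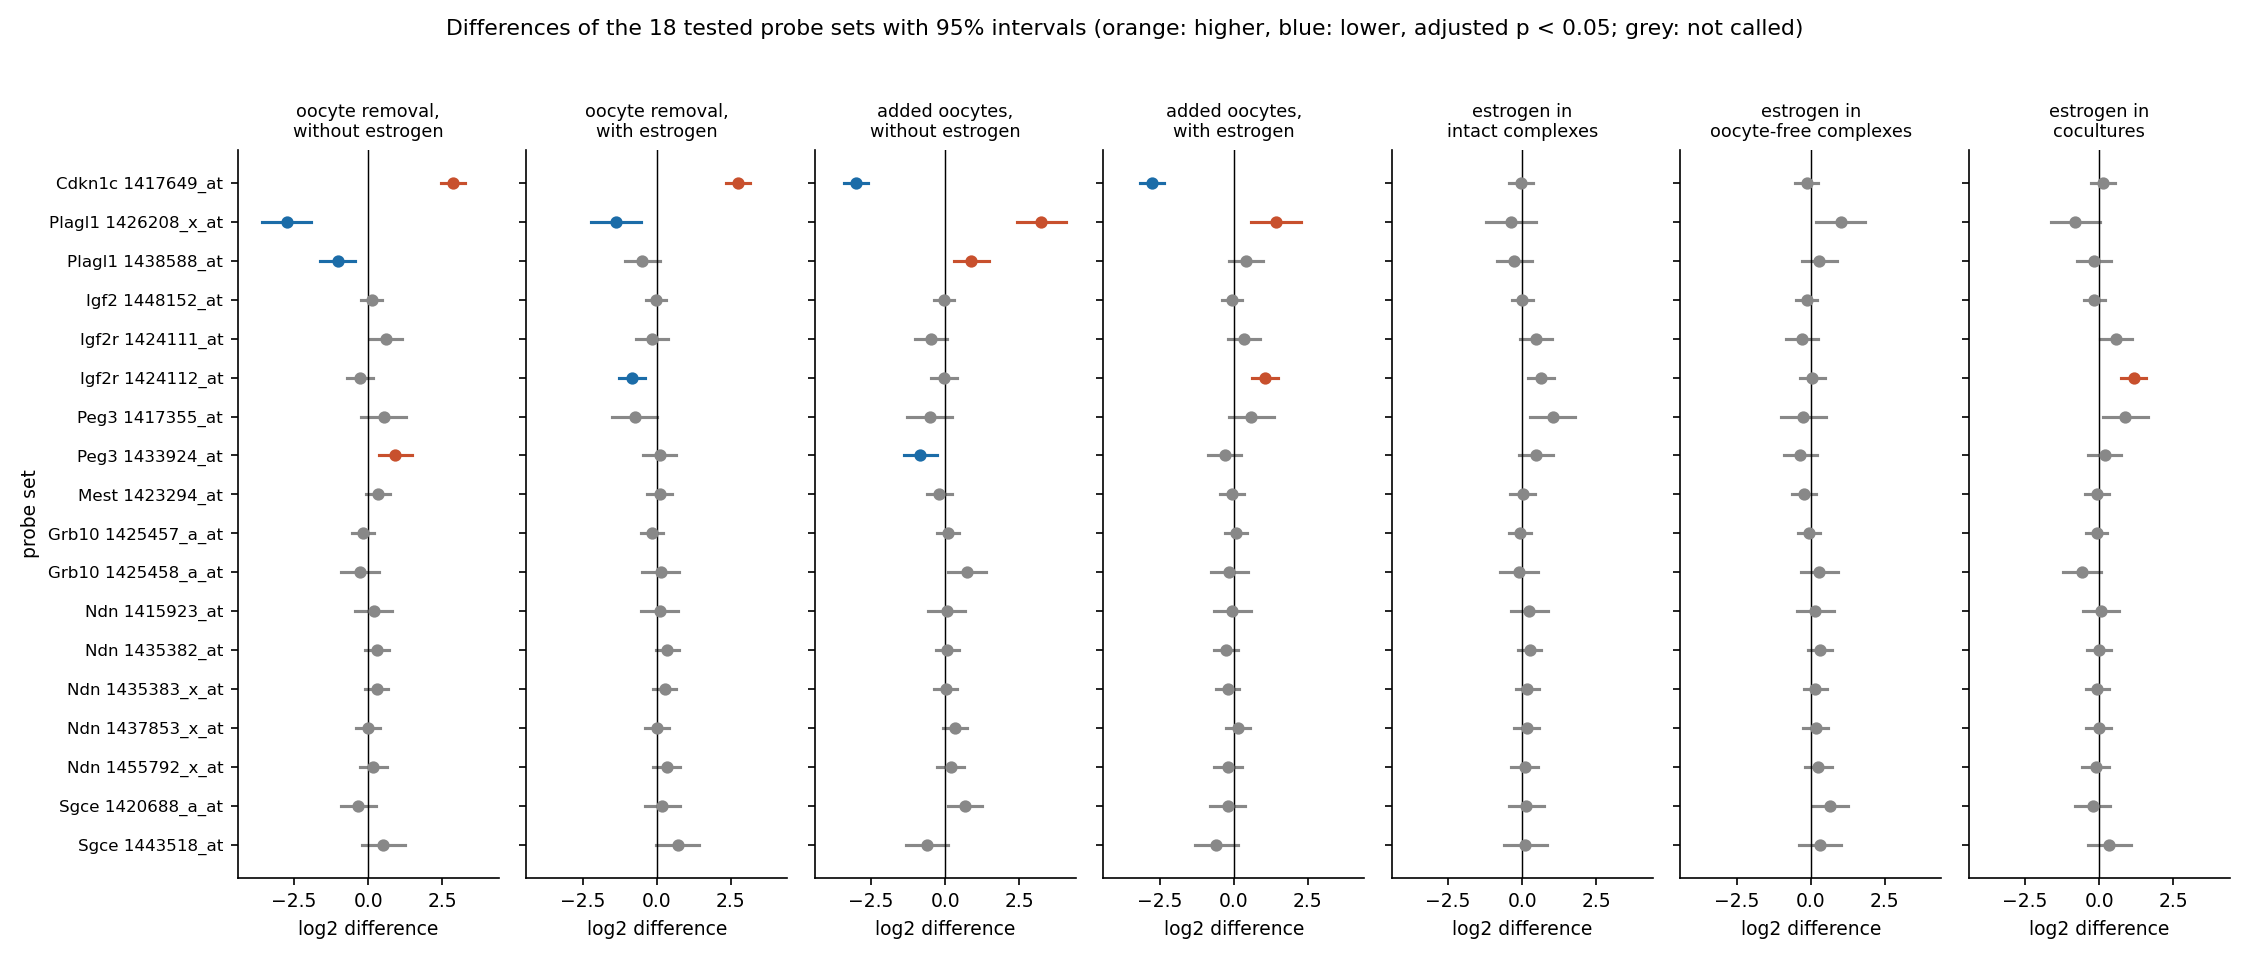
Log2 difference (horizontal axis) with its 95% interval for the 18 tested probe sets (vertical axis) in 7 comparisons between groups, n = 3 arrays each; orange and blue mark calls, grey no call. Cdkn1c and Plagl1 reverse sign between removal and addition of oocytes, at 2.85 and -3.01 for Cdkn1c without estrogen, and most of the other intervals include 0.

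The probe set of the H19 transcript, the maternally expressed noncoding RNA beside Igf2, was also high in the oocyte-free groups, although it does not meet the rule for 1 symbol. Its second symbol is Mir675, the microRNA processed from H19; the array does not measure mature microRNA. The RefSeq sequence of its 5′ arm, with the seed (bases 2 to 8) in capitals, lies within the H19 locus at chr7:142577112-142577133, minus strand, build GRCm38.p6.
miR-675-5p: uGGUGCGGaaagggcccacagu

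This set was chosen after its values were seen. It read 5.22, 5.16 and 5.34 in COC, 9.26, 8.64 and 7.29 in OOX, and 5.40, 5.58 and 5.34 in OOX + oocytes. With estrogen it read 4.93, 5.01 and 5.22 in COC, 6.57, 6.95 and 7.73 in OOX, and 5.20, 4.75 and 5.06 in OOX + oocytes. The 6 oocyte-free arrays were above the array median and the other 12 were not. It passed the filter on low values through the oocyte-free groups alone, so its differences are given as a description, with no test and no fold. The OOX mean was 3.16 log2 units above that of COC (3.71 without OOX replicate 3, and 2.34 in the fit with a series term), and the E2 OOX mean 2.03 above that of E2 COC. Cocultures were at -2.96 against OOX (-2.11 with a series term) and at -2.08 with estrogen.

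Within the oocyte-free complexes the E2 OOX mean stood at -1.31 against OOX, and the groups overlapped. This difference was -1.06 with the conflicting array left out, -0.60 with it placed in OOX, and -1.87 without OOX replicate 3. The removal difference with estrogen minus that without was -1.13, or -1.68 without OOX replicate 3, and for addition 0.88 or 1.43, where for Cdkn1c the 2 values with all arrays were -0.11 and 0.26. Its imprinted neighbour Igf2 showed no such pattern (0.11 on removal without estrogen, -0.23 to 0.46).

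Genes whose values over the 18 arrays were most like those of the members, by Pearson correlation over the same samples, are given as a description only. For Cdkn1c they were Pcdh9 (0.986), Pdgfd (0.977) and Flrt2 (0.977). For Plagl1 1426208_x_at they were Esr1 (0.969), the estrogen receptor alpha gene, Papss2 (0.962) and Ints6 (0.957). For Igf2r 1424112_at they were Hspa1a (0.937), Mif4gd (0.922) and Rasgef1b (0.914). For Peg3 1433924_at the nearest was Ylpm1 (0.868) and for Sgce 1420688_a_at Capns1 (0.877), while the nearest genes to Igf2, Mest, Grb10 and Ndn reached 0.784 to 0.810.

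Of the imprinted genes beside the members in RefSeq's gene order, 21 were in the wider imprinted list and 11 of them were tested. On removal 3 were called in each hormone condition, where 17.4% of all genes were higher and 20.1% lower without estrogen and 12.3% and 16.5% with it, a share near the background. Beside Cdkn1c, neither Kcnq1ot1 (0.07 on removal without estrogen), the noncoding RNA of that domain, nor Slc22a18 (0.16) was called. Beside Grb10, which was not called, Ddc, the aromatic amino acid decarboxylase gene, was among the most changed of the list. It read 8.30 ± 0.28 in COC and 4.10 ± 0.11 in OOX (SD, n = 3), a fall of 4.20. Its OOX level lay below the array median (5.51 to 5.71). Ddc thus passed the filter on low values through other groups, and the fall is given as a description. Near Sgce, Ppp1r9a rose by 0.97 without and 1.62 with estrogen on removal (adjusted p = 0.000234 and 1.52e-06), and Casd1 was not called.

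Among the 29 tested genes of the wider imprinted list 4 were higher and 9 lower on removal without estrogen, where 17.4% and 20.1% of 12246 genes were. Nap1l5, which encodes a nucleosome assembly protein, fell by 5.01 ± 0.27 (adjusted p = 5.78e-10), and the amino acid transporter gene Slc38a4 fell by 2.01. Inpp5f, an inositol phosphatase gene, rose by 1.86. Asb4 was not called there but rose by 2.76 on removal in estrogen, with a called difference between hormone conditions (2.44, adjusted p = 0.00054). Slc38a4 also differed between hormone conditions (2.56, adjusted p = 0.000192): estrogen changed it by -1.40 in intact and by 1.17 in oocyte-free complexes. With added oocytes 6 of 29 were higher and 4 lower without estrogen, where 19.1% and 12.9% of all genes were, and 4 and 2 with it, where 13.4% and 9.77% were.

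**Figure D5:**
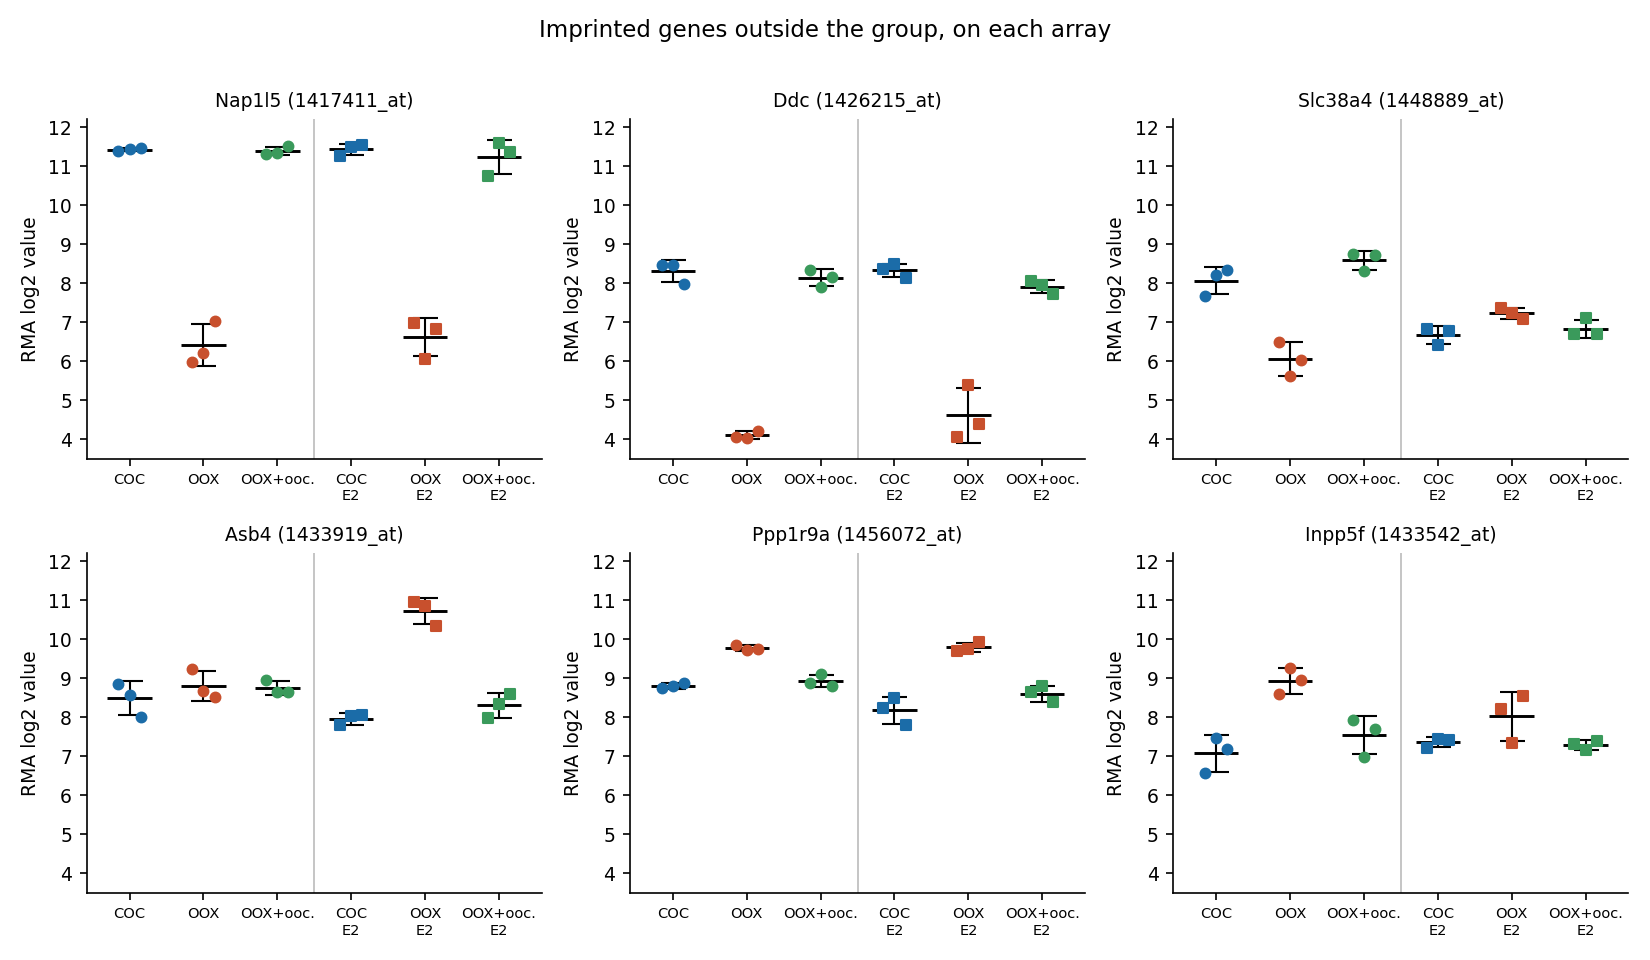
RMA log2 values (vertical axis) of 6 imprinted genes outside the member list on each array, by group (horizontal axis); bars are means with SD, n = 3. Nap1l5 and Ddc are low in both oocyte-free groups (Nap1l5 means 6.41 and 6.62 against 11.2 to 11.4 elsewhere), and Asb4 is highest in oocyte-free complexes with estrogen.

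In the IGF pathway, to which Igf2 and Igf2r belong, 10 of 24 tested genes were higher and 5 lower on removal without estrogen, against 17.4% and 20.1% of all genes. The ligand gene Igf1 fell by 2.74 (adjusted p = 3.31e-07), the binding protein gene Igfbp4 rose by 3.04 (3.65e-06), and Stc1, whose product inhibits the protease of IGF binding proteins, rose by 4.12 (1.52e-08). In estrogen 8 were higher and 3 lower, against 12.3% and 16.5%, among them Igfbp1 at -3.35 and Igf1 at -2.64. Estrogen in oocyte-free complexes lowered Igfbp4 by 2.57 and Igfbp6 by 2.20.

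Of the 16 tested CDK inhibitors and partners other than Cdkn1c, 1 was higher and 8 were lower on removal without estrogen, against 17.4% and 20.1% of all genes, and 1 and 7 with it, against 12.3% and 16.5%. Ccnd2, the cyclin D2 gene, fell by 5.14 and by 4.50 (adjusted p = 2.32e-11 and 1.75e-10, limma). The 1 that rose was Cdkn1a, the p21 gene, by 1.79 and by 1.71. Among 23 tested genes of imprint maintenance 2 were higher and 4 lower without estrogen, a share below that of all genes (17.4% and 20.1%); Uhrf1, which brings DNA methyltransferase 1 to replicated DNA, fell by 3.79 and Dnmt1 by 1.31. Of the 7 tested genes of the sarcoglycan complex, to which Sgce belongs, 1 was higher and 2 lower in the same comparison, near the share of all genes, with Dag1 (dystroglycan) at -0.63.

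Markers of cell types moved with the comparisons, and their part in the member results was not tested. Each list is given as the sum of its genes' linear RMA values, as the range over 3 arrays. The 12 granulosa markers, all of which were above the median on some array, summed to 44196 to 47251 in COC, 26850 to 29889 in OOX and 42654 to 48666 in OOX + oocytes. With estrogen they summed to 59240 to 64942, 29837 to 33073 and 57748 to 64066. On removal without estrogen 3 were higher and 7 lower (17.4% and 20.1% of all genes), and with it 1 and 7 (12.3% and 16.5%). Without estrogen Hsd17b1, an estradiol-synthesis gene, fell by 4.24 and the kit ligand gene Kitl rose by 4.59.

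The 14 theca and stroma markers summed to 5397 to 6096 in COC, 3062 to 3625 in OOX and 5732 to 8024 in OOX + oocytes, and with estrogen to 1661 to 1828, 3987 to 6068 and 2154 to 2811. Of the 9 tested, 1 was higher and 4 lower on removal without estrogen (17.4% and 20.1% of all genes), and 4 were higher and 1 lower with it (12.3% and 16.5%). Dcn (decorin) rose by 4.48 and by 3.39, while Acta2 (smooth muscle actin) fell by 1.91 without estrogen and rose by 2.98 with it. The collagen genes Col1a1, Col1a2 and Col3a1, and Lum, were below the median on all arrays. The 15 oocyte markers summed to 726 to 902, 467 to 641 and 700 to 988 without estrogen and to 845 to 928, 431 to 464 and 684 to 1000 with it. Of these 9 were below the median on all arrays, Bmp15, Zp1 and Zp2 among them. Of the 3 tested, 0 were higher and 1 lower on removal without estrogen (17.4% and 20.1% of all genes). The 1 lower was Bcl2l10, at -3.91. It may have passed the filter on low values through the groups with oocytes alone, so this value is given as a description. The 11 endothelial and blood markers summed to between 332 and 443 in every group, with 7 below the median on all arrays, Pecam1 and Ptprc among them.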

How the data were processed

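Total RNA of cumulus cells was profiled on 18 Affymetrix arrays. The deposited values are log2 RMA values with 2 decimals, which the authors made in Expression Console 1.1 (Affymetrix), per the submitters' processing notes; no scanner files were used here, and the number of arrays limits the precision. RMA scales every array to 1 distribution, so a change in total RNA per cell is not seen. Groups and replicate numbers came from the sample titles. Of 45101 probe sets, 34945 had 1 symbol, 932 several and 9160 none in GEO's platform annotation. Of those with 1 symbol, 34741 were matched to a RefSeq symbol through Entrez IDs. Probe sets with 1 symbol and above the array median on at least 3 arrays were tested: 21249 probe sets of 12260 genes. Under R 4.3.3, limma 3.58.1 fitted the 6 group means together (lmFit, then eBayes), with no covariate, and took contrasts. The scripts were tested on simulated data with known changes. For gene lists each gene's probe set of highest mean was used.

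All probe sets of the member genes were examined, but values by group are not printed for each of them. From each list up to 3 called genes with the largest change per comparison could be named, with defining markers and, for each member, the 3 genes of highest correlation. Members and lists were chosen with earlier results of these data known. Neighbouring genes, Cdkn1a, Dag1, Dnmt1 and the H19 probe set were named after their values were seen. Alternatives were other filters and scalings, 1 probe set per gene, array weights, the array series as a term or series 1 alone, the replicate block, only the compared groups, both treatments of the array with conflicting labels, and leaving out each array; a fit over all 21823 probe sets with a symbol was added after seeing the data. Promoter and microRNA sequences are RefSeq's.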

Additional observations from a re-analysis of the deposited data

Results flagged for a closer look

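The probe set annotated to both H19 and Mir675, 1448194_a_at, lies outside the rule for 1 symbol per probe set and so outside the comparisons of the members, and it carried signal above its level in the intact complexes. The mean of the OOX arrays exceeded that of the COC arrays by 3.157 on the log2 scale (3.71 without OOX replicate 3). It was above the array median on 6 of 18 arrays, those of the 2 oocyte-free groups.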

How the results depend on the processing

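No called member result changed direction. Of the 15 called member results 9 were called under every alternative run, and of the 183 uncalled ones 30 were called under at least 1. The share of all tested probe sets called in each alternative is not given here. The member counts below therefore cannot be set against a background share. Array weights, which gave OOX replicate 3 a weight of 0.164, called 7 probe sets for added oocytes without estrogen and 6 with it, 3, 3 and 4 for estrogen in intact, oocyte-free and cocultured complexes, and 2 and 5 for the differences between hormone conditions in removal and in addition. The array series as a term called 5 for added oocytes with estrogen, 2 for estrogen in intact complexes, 2 in cocultures and 1 for the difference in addition. Series 1 alone called 6 for removal and 5 for addition with estrogen, and 3 and 2 for estrogen in intact and cocultured complexes. The compared groups alone called 2 for estrogen in intact complexes and 2 in cocultures. One probe set per gene, a second quantile normalization, median centring, or leaving out the array with conflicting labels each called 1 for the difference in addition. The last of these is the same fit as leaving out E2 OOX replicate 1.

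Leaving out 1 array at a time gave 3 to 5 calls for removal without estrogen and 2 to 3 with it, 2 to 5 for addition without estrogen (2 without OOX + oocytes replicate 3 or OOX replicate 2) and 2 to 3 with it, and 0 to 0 for both comparisons of cocultures with intact complexes and for estrogen in intact complexes. Estrogen gave 0 to 2 in oocyte-free complexes and 1 to 2 in cocultures, and the difference in removal 0 to 2, each highest without OOX replicate 3. The difference in addition gave 0 to 3, with calls without OOX + oocytes replicate 1, E2 OOX replicate 1 or OOX replicate 3. With the replicate number as a block, 4 member probe sets were called for removal without estrogen and no call changed in any comparison. The numbers do not show a pairing: of 45 pairs of arrays with the same number 15 had deviations that correlated above 0.1 (median -0.01). Of 90 pairs with different numbers 35 did (median -0.01). Probe sets near the array median, such as those of Igf2 and Mest, and of Cdkn1c in the groups with oocytes, have little signal over background. Small changes there are not resolved.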
